A study of Mus musculus with 15 samples.

Results

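The transcriptional response to platelet-derived growth factor (PDGF) was compared, with protein synthesis blocked by cycloheximide, against starved cells that received no PDGF. Members were chosen by the sample titles: 3 libraries of H2A-mCherry cells with cycloheximide and PDGF, and 3 libraries of H2A-mCherry cells without PDGF, which are 6 of the 15 libraries in the series. All 6 came from NIH3T3 mouse fibroblasts, an established cell line, carrying a stable doxycycline-inducible fusion of histone H2A to the fluorescent protein mCherry, and were starved beforehand. The untreated group received neither PDGF nor cycloheximide. Another group of 3 libraries, the same cells with PDGF alone, is given beside them for reference. No group with cycloheximide but without PDGF was analysed here, so the contributions of PDGF and of cycloheximide to any difference below cannot be told apart. The sources used here do not give doses, treatment times, the length of starvation, whether the line is 1 clone, or whether doxycycline was added in each group. The remaining groups received rapamycin with PDGF or carried H2A-TerminaTOR, an inhibitor of nuclear mTORC1. They entered the filter on low counts, the scaling and the estimate of the spread, so they also affect which genes were tested. The labels do not say whether replicate libraries came from separate cultures, so p-values measure only the spread between these samples, and that spread may be technical.

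PDGF binds receptor tyrosine kinases on fibroblasts and activates the MAPK and PI3K cascades. Transcription factors already present in the resting cell, such as SRF with its ternary complex partners and CREB, are then switched on and start the immediate early genes, whose induction needs no new protein. Their products, among them AP-1 and EGR factors, in turn drive delayed genes. Cycloheximide stalls ribosomes during elongation and is the classical means of separating these classes. It is also known to prolong the life of short-lived messenger RNAs and to keep labile repressors from being remade, which is known as superinduction.

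Messenger RNA was selected on poly-T beads, and reads were deposited as counts per transcript, which were summed per gene here. Library totals were 4521177, 3892398 and 4406994 counts without PDGF and 5302795, 4343791 and 5579478 counts with cycloheximide and PDGF, within a range of 3466202 to 6777780 over the series. The share of counts on mitochondrially encoded genes was 11.1% to 12.2% without PDGF, 8.69% to 9.30% with PDGF and 6.28% to 6.64% with cycloheximide and PDGF. The 6 genes *Jun*, *Ier2*, *Ptgs2*, *Btg2*, *Rhob* and *Junb* together held 0.191% to 0.23% of all counts without PDGF and 12.2% to 12.7% with cycloheximide and PDGF. Of 9 fibroblast marker genes tested, 2 rose (*Fn1* and *Vim*) and 4 fell (*Dcn*, *Col3a1*, *Pdgfra* and *Col1a2*), beside 24.6% and 22.8% of all genes. The summed level of the fibroblast markers was 8430 to 8520 counts scaled by library size (CPM) without PDGF and 7570 to 7920 CPM with cycloheximide and PDGF. The summed level of 7 macrophage markers was 6.72 to 11.3 CPM and 17.8 to 26.1 CPM, where *Cd14* alone was called and 2 markers had no read. *Dcn* was not called when only protein-coding transcripts were counted (edgeR adjusted p = 0.129). Endothelial and epithelial markers stayed under 4 CPM in sum and adipocyte and muscle markers under 3 CPM in these 6 libraries, and the part of other cell types in the results was not tested. *Actb* had 0 to 2 reads per library and *Gapdh* 14 to 41, few for such abundant messages. Counting tools of this kind can leave out reads that match several transcripts, and the sources used here do not give the settings. A shift between isoforms can therefore change a gene's count, and levels of different genes cannot be compared.

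Of 10603 genes tested, 2611 (24.6%) were higher with cycloheximide and PDGF than without PDGF and 2417 (22.8%) were lower, at an adjusted p under 0.05 in the quasi-likelihood test of edgeR, adjusted by the Benjamini-Hochberg method. Changes of at least 2-fold were found for 2598 genes, 1451 higher and 1147 lower, and changes of at least 8-fold for 302 genes higher and 124 lower. In 5730 genes (54.0%) the 3 libraries of a group did not overlap with those of the other. The genes called higher made up 51.9% of all calls under the scaling used (TMM), and the median log2 change of all genes was -0.01. Scaling by library size alone moved that median to -0.40 and the share of higher calls to 26.8%, so directions of small changes are relative to the bulk of genes. With PDGF alone, 20.1% of genes were higher and 16.9% lower than without PDGF. With cycloheximide and PDGF, 21.0% were higher and 19.6% lower than with PDGF alone. These comparisons share libraries with the main comparison, so their values are set side by side and no agreement between them is read as a result.

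**Figure D1:**
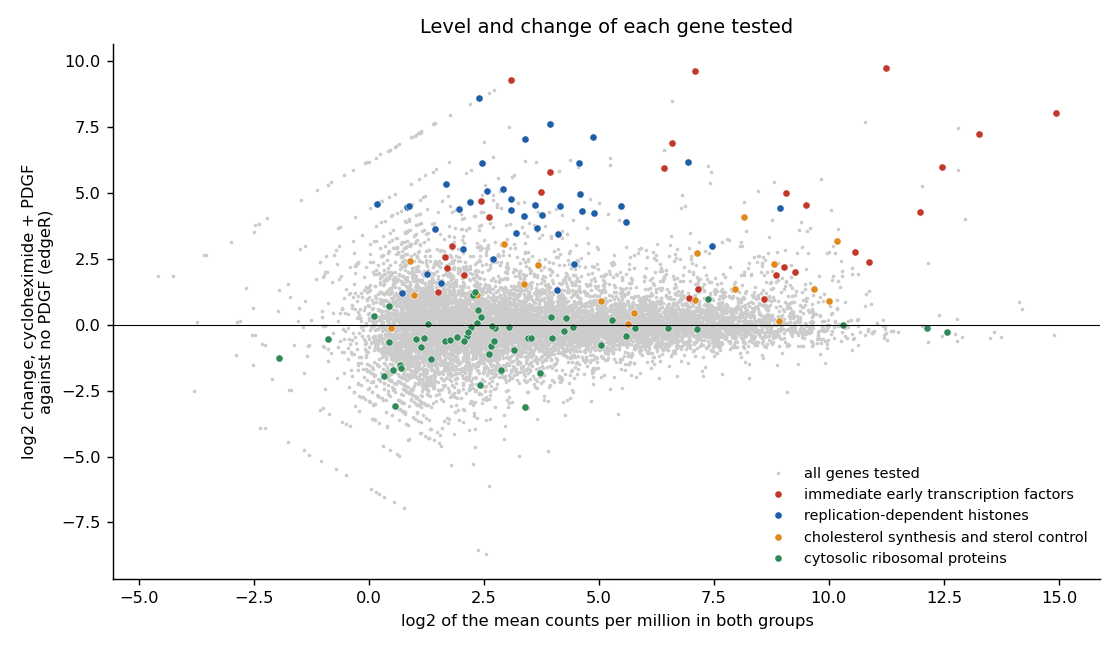
Each point is a gene tested, with the log2 of its mean level in CPM over both groups on the x axis and its log2 change, cycloheximide with PDGF against no PDGF, on the y axis. Immediate early transcription factors (red) and replication-dependent histones (blue) lie above 0, most sterol genes (orange) rose and cytosolic ribosomal protein genes (green) lie around or below 0.

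Immediate early transcription factors rose throughout. All 28 members tested, of 31 listed, were higher with cycloheximide and PDGF, against the 24.6% of all genes tested, with a median log2 change of 4.18. Members that pass the filter on low counts only through the treated libraries had to differ, so the count is a description. Of the 15 members with at least 10 reads in each library without PDGF, 15 rose, with a median of 2.77. Promoter sequences of 4 genes from the immediate early lists are shown. SRF and CREB, which act through the CArG box and the cyclic AMP response element (CRE), are present before any new protein is made. The 4 genes were picked by hand and each holds a match, whereas the windows of *Jun*, *Junb*, *Klf2* and *Klf6* held none of the motifs searched. The sequences run from 250 bases before to 50 bases after the annotated start and come from RefSeq on GRCm38.p6. *Fos* lies at chr12:85473640-85473939 on the plus strand, *Egr2* at chr10:67537316-67537615 on the plus strand, *Btg2* (an immediate early effector) at chr1:134079106-134079405 on the minus strand and *Srf* at chr17:46556113-46556412 on the minus strand. Capitals mark a match to the NF-kB motif in *Fos*, a CArG box in *Egr2*, a CRE (TGACGTCA) in *Btg2* and 2 CArG boxes in *Srf*.
Fos: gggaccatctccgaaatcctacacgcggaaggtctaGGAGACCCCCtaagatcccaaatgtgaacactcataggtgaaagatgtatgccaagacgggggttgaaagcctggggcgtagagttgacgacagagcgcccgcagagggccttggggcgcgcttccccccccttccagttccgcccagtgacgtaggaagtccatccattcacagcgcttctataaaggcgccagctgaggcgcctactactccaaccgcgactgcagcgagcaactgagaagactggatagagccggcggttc
Egr2: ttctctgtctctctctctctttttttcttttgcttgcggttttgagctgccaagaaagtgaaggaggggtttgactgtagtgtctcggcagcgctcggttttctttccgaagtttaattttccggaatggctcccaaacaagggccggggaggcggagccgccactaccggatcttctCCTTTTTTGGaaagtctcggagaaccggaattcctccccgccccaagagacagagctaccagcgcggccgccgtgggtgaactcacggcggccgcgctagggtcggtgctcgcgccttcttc
Btg2: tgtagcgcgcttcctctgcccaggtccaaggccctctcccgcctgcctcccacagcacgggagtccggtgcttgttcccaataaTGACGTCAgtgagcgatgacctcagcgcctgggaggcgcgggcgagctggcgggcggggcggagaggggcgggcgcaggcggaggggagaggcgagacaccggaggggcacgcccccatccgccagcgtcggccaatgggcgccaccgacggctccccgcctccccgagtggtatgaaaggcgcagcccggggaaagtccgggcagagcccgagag
Srf: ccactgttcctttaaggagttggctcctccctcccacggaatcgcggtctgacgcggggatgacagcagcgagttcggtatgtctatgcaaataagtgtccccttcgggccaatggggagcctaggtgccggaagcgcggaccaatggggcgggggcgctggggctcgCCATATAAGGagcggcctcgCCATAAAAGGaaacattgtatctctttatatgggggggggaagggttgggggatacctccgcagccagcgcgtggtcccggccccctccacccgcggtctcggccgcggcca

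The CArG boxes begin 72 bases before the start of *Egr2* and 82 and 62 bases before the start of *Srf*, the CRE 166 bases before that of *Btg2* and the NF-kB match 214 bases before that of *Fos*. RefSeq promoters could be matched for 19 of the 28 transcription factor genes and for 6896 of the genes tested. A CArG box was found in the promoters of 2 of the 19 (10.5%), the *Egr2* and *Srf* shown, and in 1.58% of all 6896 genes. A CRE was found in 5.26% and 3.78%, and an NF-kB motif in 6 of the 19 (31.6%) and in 6.21%. The *Fos* window held no match to the CArG box or the CRE. Among 12 MAPK feedback genes with a promoter, 3 (25%) held a CRE. RefSeq lists several starts for some genes, 5 for *Egr2*, and a gene was counted where any of its windows held the motif on either strand. A match is a run of letters within this window and says nothing of binding. Sites outside the window were not searched.

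*Fos* (ENSMUSG00000021250.13, GRCm38 chromosome 12, 85473890 to 85477273), which encodes the AP-1 subunit c-Fos, was at 7.27, 5.24 and 4.67 CPM in the 3 libraries without PDGF. It was at 146, 134 and 138 CPM with PDGF and at 5382, 4694 and 4501 CPM with cycloheximide and PDGF. The groups were far apart, and the log2 change from no PDGF was 9.71 ± 0.14 (SE) with cycloheximide and PDGF against 4.59 ± 0.15 with PDGF alone (edgeR adjusted p = 2.7e-22 and 1.03e-15). *Jun* (ENSMUSG00000052684.4, GRCm38 chromosome 4, 95049034 to 95052222), the main partner of Fos in AP-1, had 259, 267 and 190 CPM without PDGF. Its level was 6396, 6932 and 6480 CPM with PDGF and 62224, 63999 and 60013 CPM with cycloheximide and PDGF. In the latter libraries *Jun* alone held 5.60% to 5.85% of all counts, and its log2 change was 8.02 ± 0.13 (edgeR adjusted p = 9e-15). An antisense gene, *Junos*, overlaps *Jun*, and the sources used here do not give the strand of the reads.

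*Junb*, another AP-1 subunit, was at 196, 188 and 147 CPM without PDGF and at 11226, 11698 and 10542 CPM with cycloheximide and PDGF, a 63.1-fold difference (edgeR adjusted p = 2.03e-29). *Fosb* went from 5 reads in all without PDGF to 317 with PDGF and 3831 with cycloheximide and PDGF. *Jund*, which is usually regarded as the steady member of the family, was at 62.3, 66.5 and 51.4 CPM and at 1501, 1371 and 1332 CPM, with a log2 change of 4.55 ± 0.08 against 1.58 ± 0.08 with PDGF alone. *Fosl2* rose 5.24-fold, close to its 4.43-fold rise with PDGF alone. The 7 Fos and Jun family genes tested all had their 3 libraries with cycloheximide and PDGF above those without PDGF, where 54.0% of all genes had no overlap in either direction. Among them *Fosl1* overlaps *Ccdc85b* on the opposite strand, so its reads cannot be told apart from those of *Ccdc85b*. The further difference from PDGF alone ran from a log2 change of 0.24 for *Fosl2* to 5.12 for *Fos*.

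The zinc finger EGR factors followed. *Egr4* had no read in any library without PDGF, 7 reads with PDGF and 235 with cycloheximide and PDGF, so it was at least 86.3-fold higher than without PDGF (floor of 3 counts over the group). *Egr3* was at 2.00, 2.18 and 0.748 CPM without PDGF, 43.8, 40.1 and 42.9 CPM with PDGF and 200, 206 and 172 CPM with cycloheximide and PDGF, a log2 change of 6.86 ± 0.18 (edgeR adjusted p = 1.91e-43). *Egr2*, whose promoter with a CArG box is shown above, had a log2 change of 5.79 ± 0.36 from 8 to 427 reads. *Egr1*, the best known member, was covered by few reads, 6, 18 and 149 reads in the 3 groups, and it rose by 4.67 ± 0.54 on the log2 scale (edgeR adjusted p = 1.7e-11). In every EGR gene the libraries with cycloheximide and PDGF lay above those with PDGF alone and without PDGF. Against no PDGF, 54.0% of all genes had no overlap in either direction.

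*Ier2*, an immediate early nuclear protein gene, was at 150, 134 and 107 CPM without PDGF, 1345, 1288 and 1257 CPM with PDGF and 20524, 19759 and 18533 CPM with cycloheximide and PDGF, a 150-fold rise over no PDGF (edgeR adjusted p = 3.88e-15). The Krüppel-like factor genes *Klf2* and *Klf6* rose 31.5-fold and 19.5-fold with cycloheximide and PDGF, against 2.75-fold and 3.95-fold with PDGF alone. *Klf4* instead was at 1035, 1116 and 1114 CPM with PDGF and at 798, 911 and 847 CPM with cycloheximide and PDGF, both well above the 198, 193 and 169 CPM without PDGF. *Srf* itself rose 1.99-fold (95.2, 77.7 and 76.5 to 164, 170 and 163 CPM, edgeR adjusted p = 2.46e-16) and did not pass the test with PDGF alone (log2 change 0.22 ± 0.09, edgeR adjusted p = 0.0509).

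4 of the 28 factors were lower with cycloheximide and PDGF than with PDGF alone although above the level without PDGF. *Bhlhe40*, a helix-loop-helix repressor, was at 73.2, 82.02 and 86.8 CPM without PDGF, 483, 536 and 481 CPM with PDGF and 162, 240 and 212 CPM with cycloheximide and PDGF. *Nr4a2*, an orphan nuclear receptor, *Cebpb*, a leucine zipper factor, and *Klf4* were the others, with log2 differences from PDGF alone of -1.39, -0.64 and -0.35. The related receptor *Nr4a1* went the other way, at 3.45, 1.75 and 2.81, then 56.5, 49.9 and 48.3, then 199, 159 and 147 CPM in the 3 groups. *Myc*, the growth regulator, had 26, 78 and 56 reads, and its log2 change of 1.25 ± 0.45 (edgeR adjusted p = 0.0184) lost the call without replicate 2 or 3 of the libraries without PDGF or replicate 1 with cycloheximide and PDGF (adjusted p up to 0.114) and under library-size scaling (0.102).

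**Figure D2:**
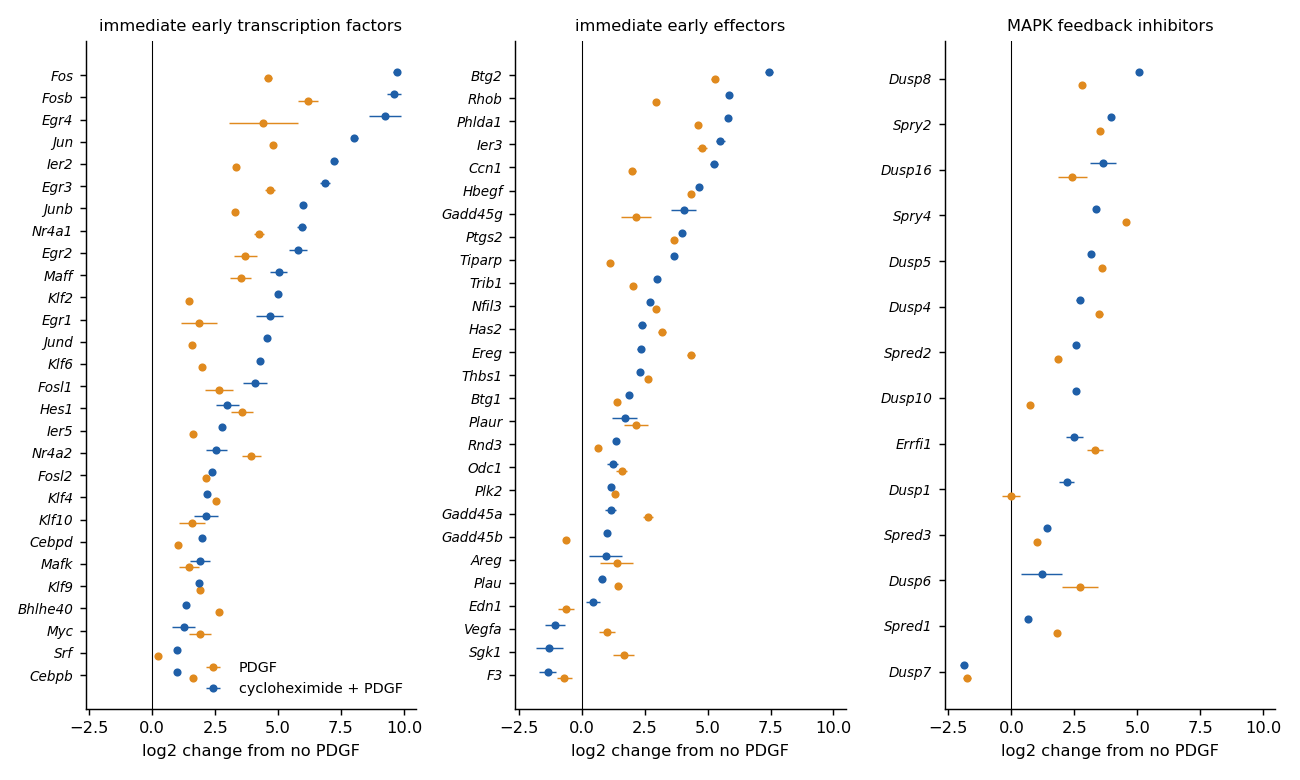
Log2 change from no PDGF, with its standard error, for the members shown of 3 gene lists, with PDGF alone (orange) and with cycloheximide and PDGF (blue). The 28 transcription factors all lie right of 0 with cycloheximide and PDGF, and members such as *Ereg* and *Spry4* lie further right with PDGF alone.

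Immediate early effectors, the secreted, signalling and antiproliferative products of the same early wave, rose in 23 of 28 tested (82.1%, beside 24.6% of all genes) and fell in 3 (10.7%, beside 22.8%), with a median log2 change of 2.33. With PDGF alone 24 rose and 1 fell (beside 20.1% and 16.9% of all genes). *Btg2* (ENSMUSG00000020423.6, GRCm38 chromosome 1, 134075170 to 134079120), an antiproliferative gene, was at 99.2, 85.3 and 61.9 CPM without PDGF, 3089, 3253 and 3299 CPM with PDGF and 15410, 13897 and 13280 CPM with cycloheximide and PDGF, a log2 change of 7.43 ± 0.15 (edgeR adjusted p = 7.18e-13). *Rhob*, a short-lived small GTPase, rose 57.5-fold to 14511, 14353 and 13635 CPM, and *Ccn1*, a matricellular protein gene, 38.2-fold to 9719, 7667 and 6989 CPM, against 7.74-fold and 4.03-fold with PDGF alone. The libraries of the groups did not overlap for any of these. Between cycloheximide with PDGF and no PDGF the same held for 54.0% of all genes.

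*Ptgs2*, which encodes the prostaglandin synthase COX-2, and *Hbegf*, a ligand of the EGF receptor, were close in the 2 treatments, with log2 differences from PDGF alone of 0.34 and 0.30. *Ptgs2* was at 926, 1011 and 857 CPM without PDGF, 11969, 11825 and 11357 CPM with PDGF and 15834, 14257 and 14550 CPM with cycloheximide and PDGF (log2 change from no PDGF 4.0 ± 0.06, edgeR adjusted p = 1.64e-57). *Hbegf* rose 25.2-fold against 20.5-fold with PDGF alone. The further EGF receptor ligand *Ereg* was at 43.97, 47.8 and 38.7 CPM, 912, 814 and 905 CPM and 193, 220 and 242 CPM in the 3 groups, so that it stood 5.04-fold above no PDGF with cycloheximide and PDGF and 20.2-fold with PDGF alone. *Gadd45a*, a growth arrest gene, and *Thbs1*, a matrix glycoprotein gene, were likewise above no PDGF and below PDGF alone, with log2 differences from PDGF alone of -1.48 ± 0.18 and -0.30 ± 0.05 (edgeR adjusted p = 2.31e-10 and 4.1e-06). The 3 effectors that fell were *Vegfa*, an angiogenic factor (80 to 34 reads), *Sgk1*, a kinase (39 to 14), and *F3*, tissue factor (154 to 54). *Vegfa* and *Sgk1* had risen with PDGF alone. The fall of *Sgk1* (edgeR adjusted p = 0.0408) lost the call without replicate 1 or 3 of the libraries without PDGF or replicate 2 or 3 with cycloheximide and PDGF (adjusted p up to 0.185), under limma-voom (0.0753) and with no filter on low counts (0.0994). That of *Vegfa* (0.0163) lost it without replicate 1 of the former or replicate 1 or 3 of the latter (up to 0.118).

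Inhibitors that feed back on the MAPK cascade rose in 12 of 14 tested (85.7%, beside 24.6% of all genes) and fell in 1 (7.14%, beside 22.8%). The median log2 change was 2.58, and the counts were the same with PDGF alone (where 20.1% of all genes rose and 16.9% fell). *Dusp8*, a phosphatase of stress-activated MAP kinases, was at 18.2, 21.4 and 22.2 CPM without PDGF, 148, 159 and 129 CPM with PDGF and 665, 739 and 654 CPM with cycloheximide and PDGF, a log2 change of 5.06 ± 0.09 (edgeR adjusted p = 6.67e-55). *Spry2*, a Sprouty inhibitor, rose 15.4-fold against 11.5-fold with PDGF alone. *Spry4*, *Dusp5* and *Dusp4*, the last 2 being nuclear ERK phosphatases, rose 10.3-fold, 8.87-fold and 6.59-fold, each less than the 23.3-fold, 12.1-fold and 11.3-fold with PDGF alone. *Dusp1*, whose product acts on several MAP kinases, was at 3.45, 6.11 and 2.06 CPM without PDGF and 4.41, 3.36 and 3.52 CPM with PDGF, with overlapping libraries, and at 16.96, 15.6 and 19.98 CPM with cycloheximide and PDGF (log2 change 2.2 ± 0.30, edgeR adjusted p = 2.22e-09). *Dusp7*, another ERK phosphatase, fell by 1.89 on the log2 scale with cycloheximide and PDGF and by 1.76 with PDGF alone.

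Cytokines and targets of NF-kB, a factor released from its inhibitor without new protein, rose in 16 of 21 tested (76.2%, beside 24.6% of all genes) and fell in 1 (4.76%, beside 22.8%), with a median log2 change of 1.98. Of the 11 with at least 10 reads in each library without PDGF, 7 rose and 1 fell, with a median of 0.65. With a mean count of at least 30 required 9 of 11 tested rose (median 0.94), and 10 of 14 when the 6 libraries alone were fitted (median 0.86). *Cxcl1*, a neutrophil chemokine, went from 4 reads without PDGF to 68 with PDGF and 294 with cycloheximide and PDGF. *Il11* was at 4.36, 3.93 and 2.99 CPM, 89.2, 72.4 and 86.2 CPM and 72.2, 64.8 and 72.2 CPM in the 3 groups, with no call between the treatments (log2 difference -0.24 ± 0.10, edgeR adjusted p = 0.0523). *Il6* and *Lif*, of the same cytokine family, had 2 reads each without PDGF. They had 99 and 60 reads with PDGF, and 15 and 17 reads with cycloheximide and PDGF. For *Il6* the ratio of read rates to no PDGF was 8.26 (95% interval 1.92 to 74.5), and for *Lif* 9.37 (95% interval 2.22 to 83.6). For *Lif* 1 library with cycloheximide and PDGF lay below the highest without PDGF, and the call was lost when only protein-coding transcripts were counted (edgeR adjusted p = 0.217).

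The chemokines *Ccl2* and *Ccl7* rose with cycloheximide and PDGF but were not called with PDGF alone. *Ccl7* was at 69.05, 71.1 and 70.3 CPM without PDGF, 58.1, 64.9 and 59.9 CPM with PDGF and 207, 210 and 196 CPM with cycloheximide and PDGF, and *Ccl2* went from 15 to 55 reads (edgeR adjusted p = 7.78e-28 and 0.000377). The NF-kB subunit *Rela* rose 6.95-fold to 294, 280 and 255 CPM. *Nfkb1*, which encodes p105 and p50 and is itself an NF-kB target, was at 56.2, 41.6 and 50.5 CPM with PDGF but at 24.8, 18.9 and 26.7 CPM with cycloheximide and PDGF, overlapping the 23.4, 20.1 and 25.99 CPM without PDGF (edgeR adjusted p = 0.902). *Cxcl12*, a chemokine of resting stroma, was the member that fell, from 88 to 3 reads, a ratio of 0.0376 (95% interval 0.0076 to 0.113).

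Of 15 brakes on cytokine signalling (NF-kB inhibitors, SOCS proteins and proteins that destroy AU-rich messages), 12 rose (80.0%, beside 24.6% of all genes) and 2, *Khsrp* and *Zfp36l2*, fell (13.3%, beside 22.8%). The call of *Khsrp* was lost without replicate 2 of the libraries without PDGF or replicate 3 with cycloheximide and PDGF (edgeR adjusted p = 0.057 and 0.0648). Among the 10 with at least 10 reads in each library without PDGF, 7 rose and 2 fell. *Nfkbia*, the inhibitor IkB-alpha, was at 27.8, 31.4 and 22.6 CPM without PDGF, 35.2, 38.5 and 30.4 CPM with PDGF and 164, 185 and 175 CPM with cycloheximide and PDGF (log2 change 2.68 ± 0.10, edgeR adjusted p = 1.05e-34). *Tnfaip3*, the A20 deubiquitinase gene, and *Zfp36*, which encodes tristetraprolin, went from 11 to 254 reads and from 8 to 146 reads. *Socs3*, an inhibitor of JAK-STAT signalling, rose 11.7-fold. *Cish*, a SOCS family member, had no read without PDGF, 110 with PDGF and 53 with cycloheximide and PDGF, at least 19.5-fold above no PDGF.

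**Figure D3:**
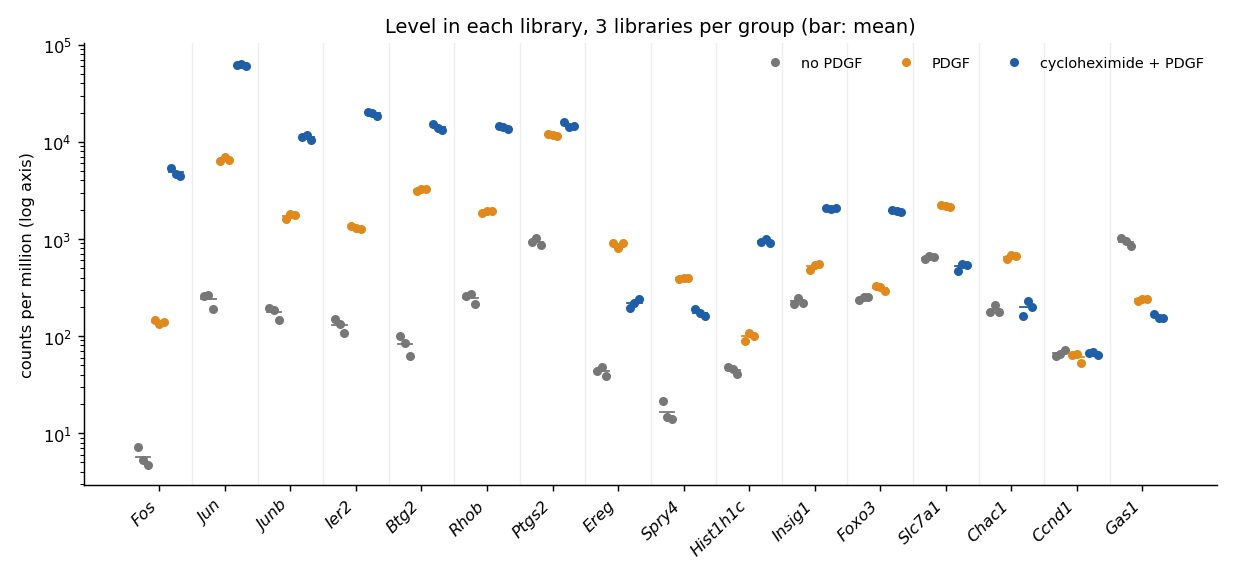
Level in CPM (log axis) of 16 genes in each of the 3 libraries without PDGF (grey), with PDGF (orange) and with cycloheximide and PDGF (blue), with the mean as a bar. *Fos*, *Jun* and *Ier2* are highest with cycloheximide and PDGF, *Ereg*, *Spry4*, *Slc7a1* and *Chac1* are highest with PDGF alone, and *Ccnd1* overlaps in all 3 groups.

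Replication-dependent histone genes rose with cycloheximide and PDGF, while most were not called with PDGF alone. Of 66 genes listed, 39 were tested, 38 of these rose (97.4%, beside 24.6% of all genes) and none fell, with a median log2 change of 4.40. With PDGF alone 7 of the 39 rose, a share near the 20.1% of all genes, and 1 fell (beside 16.9%), with a median of 0.27. The 9 with at least 10 reads in each library without PDGF all rose, with a median of 3.87. The other 30 had under 10 reads in at least 1 library without PDGF, and a member that passed the filter only through the libraries in which it is high had to differ. The 27 not tested had 29 reads in all without PDGF and 208 with cycloheximide and PDGF. These messages are short, intronless and normally end in a stem-loop instead of a poly(A) tail, and selection on poly-T beads captures few of them. The bead step can change how many are seen, and its part was not tested.

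*Hist1h1c*, a linker histone gene (chromosome 13, 23738808 to 23740367), was at 47.6, 45.8 and 40.2 CPM without PDGF, 89.5, 107 and 100 CPM with PDGF and 933, 988 and 910 CPM with cycloheximide and PDGF, a log2 change of 4.40 ± 0.08 (edgeR adjusted p = 5.86e-54). *Hist1h4i*, a core histone H4 gene, went from 3.27, 4.58 and 2.24 CPM to 264, 238 and 220 CPM. *Hist1h2bk* had 2, 6 and 430 reads in the 3 groups, and its neighbour *Hist1h2ah* had none without PDGF, none with PDGF and 149 with cycloheximide and PDGF, at least 54.7-fold above no PDGF. In all 4 genes the libraries with cycloheximide and PDGF did not overlap those without PDGF, as in 54.0% of all genes. Copies of these genes are near identical, so reads may be split between them. The 6 replacement histone genes that rose, of 11 tested (54.5%, beside 24.6% of all genes), included *H2afx* (4.1-fold) and *H1f0* (3.21-fold, 535, 543 and 451 to 1618, 1732 and 1563 CPM). *H2afy*, the macroH2A1 gene, fell by 1.40 on the log2 scale beside *H2afy2* and *Cenpa*, and the share of falls (27.3%) is near the 22.8% of all genes. The fall of *H2afy2* was not called without replicate 1 of the cycloheximide group (edgeR adjusted p = 0.0731) or with no filter on low counts (0.0501), and that of *Cenpa* on protein-coding transcripts only (0.593).

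Genes of cholesterol synthesis and its control rose in 15 of 19 tested (78.9%, beside 24.6% of all genes) and fell in none, with a median log2 change of 1.34, or 0.95 and 2 falls under library-size scaling. The pathway is switched on by SREBP2, a membrane-bound factor that is cut free when sterols are low. *Insig1*, whose short-lived product holds SREBP2 back, was at 216, 249 and 220 CPM without PDGF, 484, 544 and 555 CPM with PDGF and 2096, 2056 and 2068 CPM with cycloheximide and PDGF, a log2 change of 3.18 ± 0.07 (edgeR adjusted p = 1.37e-40). The 3 groups did not overlap. The enzyme gene *Idi1* rose 6.60-fold and *Srebf2*, which encodes SREBP2, 1.90-fold. Each of these 3 genes was also higher than with PDGF alone, by a log2 difference of 1.97, 1.25 and 0.40.

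Genes that supply amino acids rose with PDGF alone and mostly did not with cycloheximide present. Of 22 genes of the ATF4 response, which supplies amino acids and transfer RNA charging, 15 rose and none fell with PDGF alone (beside 20.1% and 16.9% of all genes). With cycloheximide and PDGF against no PDGF, 4 rose (*Ddit3*, *Ddit4*, *Sesn2* and *Trib3*, 18.2%, beside 24.6% of all genes) and 9 fell (40.9%, beside 22.8%), with a median log2 change of -0.31. *Chac1*, a glutathione-degrading enzyme gene, was at 178, 208 and 178 CPM without PDGF, 615, 688 and 663 CPM with PDGF and 161, 231 and 200 CPM with cycloheximide and PDGF, where the latter overlapped no PDGF (log2 change 0.07 ± 0.12, edgeR adjusted p = 0.665). *Trib3*, a pseudokinase gene, was 3.14-fold higher with PDGF alone. With cycloheximide and PDGF its level of 312, 384 and 383 CPM overlapped the 283, 321 and 306 CPM without PDGF, and its log2 change of 0.25 (edgeR adjusted p = 0.00242) turned to -0.14 under library-size scaling. *Slc7a11*, the cystine transporter gene, rose 3.82-fold with PDGF and was at 28.3, 30.8 and 43.2 CPM with cycloheximide and PDGF against 51.97, 55.2 and 48.1 CPM without PDGF, a log2 change of -0.59 ± 0.12 (edgeR adjusted p = 2.52e-05). *Ddit3*, the CHOP gene, and *Ddit4*, an mTORC1 inhibitor gene, rose 2.84-fold and 2.43-fold. *Atf4* itself had 22, 37 and 31 reads in the 3 groups and was not called. Requiring a mean count of at least 30, or fitting the 6 libraries alone, left 14 and 16 members tested, of which 4 rose and 5 fell in each case (median -0.08 and -0.10). Of the 16 members with at least 10 reads in each library without PDGF, 4 rose and 5 fell, with a median of -0.11. Library-size scaling gave 2 rises and 15 falls, with *Sesn2* at -0.11.

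Transporters of amino acids and glucose fell in 7 of 10 tested (beside 22.8% of all genes) and rose in 1 (beside 24.6%). With PDGF alone 2 fell and 6 rose, beside 16.9% and 20.1% of all genes. *Slc7a1*, the cationic amino acid transporter gene (ENSMUSG00000041313.14, GRCm38 chromosome 5, 148327410 to 148399904), was at 619, 660 and 649 CPM without PDGF, 2244, 2167 and 2135 CPM with PDGF and 471, 551 and 539 CPM with cycloheximide and PDGF (log2 change from no PDGF -0.30 ± 0.06, edgeR adjusted p = 1.13e-05). *Slc1a5*, a glutamine carrier gene, went from 89 reads to 240 with PDGF and 29 with cycloheximide and PDGF. The member that rose was *Slc2a1*, the glucose transporter GLUT1, at 1.27, 4.80 and 4.30 CPM, 14.9, 14.7 and 15.7 CPM and 29.2, 37.1 and 34.4 CPM.

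Aminoacyl-tRNA synthetases, which load amino acids on transfer RNA, fell in 13 of 27 (48.1%, beside 22.8% of all genes) and rose in 6 (22.2%, near the 24.6% of all genes). With PDGF alone 3 fell and 12 rose, beside 16.9% and 20.1% of all genes. *Sars* was at 42.9, 38.6 and 51.6 CPM without PDGF, 84.3, 79.6 and 77.3 CPM with PDGF and 14.9, 19.7 and 20.4 CPM with cycloheximide and PDGF (log2 change -1.28 ± 0.14, edgeR adjusted p = 3.27e-12). *Tars* went from 150 reads to 305 and 5, and *Nars* from 137 to 305 and 20. Counted on protein-coding transcripts only, 6 of 19 synthetases tested fell, and the rises were 3 in place of 6 without replicate 1 of the libraries without PDGF or replicate 2 with cycloheximide and PDGF. The median of -0.23 turned to 0.03 on protein-coding transcripts and to 0.04 with a mean count of at least 30.

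Genes of the cytosolic ribosome and of ribosome assembly differed between the treatments, while most mitochondrial ribosomal protein genes were not called between them. Cytosolic ribosomal protein genes fell in 18 of 56 tested (32.1%, beside 22.8% of all genes) and rose in 3 (5.36%, beside 24.6%), *Rps15*, *Rps15a* and *Rpl7l1*. With PDGF alone 0 of these 56 genes fell and 23 rose, beside 16.9% and 20.1% of all genes. Their median log2 change with cycloheximide and PDGF was -0.48. The rise of *Rps15a* was not called without replicate 1 of the cycloheximide group (edgeR adjusted p = 0.0542) or under library-size scaling (0.0591). Falls numbered 33 under library-size scaling, and 6 of 31 tested when only reads on protein-coding transcripts were used, with a median of -0.19. *Rpl10a* was at 19.4, 21.4 and 21.3 CPM without PDGF, 33.05, 25.6 and 30.4 CPM with PDGF and 7.24, 4.79 and 5.19 CPM with cycloheximide and PDGF, and *Rps19* at 12.7, 27.1 and 16.6 CPM, 28.9, 24.04 and 26.3 CPM and 0.827, 4.29 and 1.54 CPM (edgeR adjusted p = 3.08e-11 and 2.33e-05). Of 27 ribosome biogenesis factors, 8 rose and 8 fell, or 2 and 15 under library-size scaling. With PDGF alone 20 rose and 0 fell, beside 20.1% and 16.9% of all genes. The shares with cycloheximide and PDGF, 29.6% each way, are near those of all genes (24.6% and 22.8%). *Gnl3*, the nucleostemin gene, was at 30.02, 24.6 and 29.4 CPM with PDGF and at 3.31, 4.03 and 5.19 CPM with cycloheximide and PDGF, below the 11.6, 16.6 and 12.2 CPM without PDGF. *Nop58*, a snoRNP core protein gene, rose 2.05-fold with cycloheximide and PDGF and 2.10-fold with PDGF alone. Mitochondrial ribosomal protein genes fell in 12 of 55 and rose in 2 (*Mrpl17* and *Mrps7*, 3.64%, beside 24.6% of all genes). Their share of falls (21.8%) is near the background, and falls numbered 31 under library-size scaling. With PDGF alone 10 of them fell and 3 rose (beside 16.9% and 20.1% of all genes), and 44 of the 55 were not called between the treatments. Mitochondrially encoded genes fell in 9 of 15 (60.0%, beside 22.8% of all genes) and none rose.

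**Figure D4:**
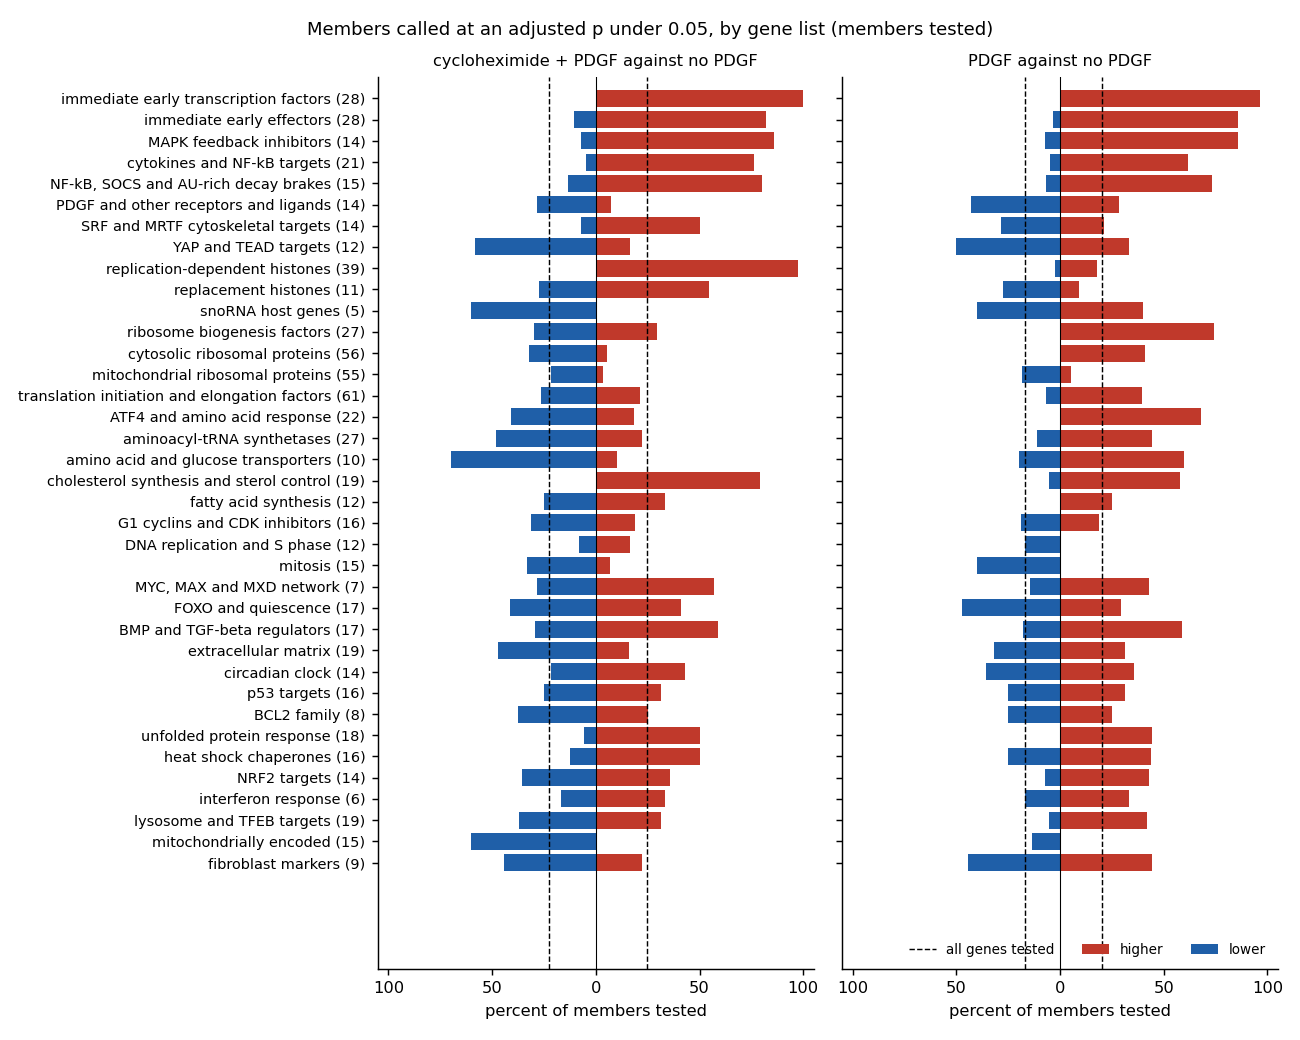
Percent of the members tested that were called higher (red) or lower (blue) for each gene list with at least 5 members tested, with cycloheximide and PDGF (left panel) and with PDGF alone (right panel) against no PDGF. Dashed lines mark the percent of all genes tested, and for ATF4 genes and transporters higher calls outnumber lower ones in the right panel only. Ribosome biogenesis factors have 8 calls each way on the left (2 higher and 15 lower under library-size scaling) and 20 higher on the right.

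Genes of quiescence were mixed. In the FOXO and quiescence list 7 of 17 rose and 7 fell (41.2% each way, beside 24.6% and 22.8% of all genes). *Gas1*, a growth arrest gene of resting fibroblasts, was at 1012, 954 and 844 CPM without PDGF, 232, 239 and 244 CPM with PDGF and 170, 152 and 155 CPM with cycloheximide and PDGF, a log2 change of -2.56 ± 0.07 (edgeR adjusted p = 7.74e-44). *Foxo3*, a factor that opposes growth, was at 238, 252 and 250 CPM, 325, 318 and 294 CPM and 2008, 1930 and 1896 CPM, while *Foxo1* was at 56.5, 56.3 and 50.9 CPM without PDGF and 51.7, 48.9 and 50.3 CPM with cycloheximide and PDGF, with no call, and at 17.6, 25.1 and 22.2 CPM with PDGF alone. *Fbxo32*, the FOXO target atrogin-1, fell by 1.58 on the log2 scale with cycloheximide and PDGF and by 2.60 with PDGF alone. In the MYC network *Mxd1*, a repressor partner of MAX, rose 8.69-fold to 296, 236 and 246 CPM. *Ccnd1*, the cyclin D1 gene of G1 progression, was at 62.5, 65.9 and 71.6 CPM, 63.6, 65.7 and 53.2 CPM and 66.2, 68.8 and 63.8 CPM and was not called in any of the comparisons. Under library-size scaling, where the median of all genes is -0.40, *Ccnd1*, *Foxo1*, *Chac1* and *Nfkb1* passed as lower than without PDGF, with log2 changes of -0.40, -0.50, -0.32 and -0.36. *Cdkn1b*, the p27 inhibitor gene, fell by 0.83 on the log2 scale with cycloheximide and PDGF and by 1.17 with PDGF alone.

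Receptors and ligands of growth factors rose in 1 of 14 tested (*Fgfr2*) and fell in 4 (*Pdgfra*, *Igf1r*, *Met* and *Tgfbr2*), or 0 and 10 under library-size scaling. The share of falls, 28.6%, is near the 22.8% of all genes. *Fgfr2* was not called without replicate 1 or 3 of the libraries without PDGF or replicate 2 or 3 with cycloheximide and PDGF (edgeR adjusted p up to 0.1), with no filter on low counts or under library-size scaling (0.134). *Pdgfra*, which encodes PDGF receptor alpha, was at 20.9, 11.1 and 24.1 CPM without PDGF, 12.9, 8.27 and 10.98 CPM with PDGF and 3.93, 2.27 and 3.27 CPM with cycloheximide and PDGF (log2 change -2.55 ± 0.28, edgeR adjusted p = 2.38e-12). *Pdgfrb* had at most 10 reads in a library and was not tested. Cytoskeletal targets of SRF and its cofactor MRTF rose in 7 of 14 and fell in 1 (*Myh9*, while 2 fell without replicate 1 of either group), with a median of 0.35 that turned to -0.04 under library-size scaling, where 4 rose and 3 fell. *Tagln2*, a transgelin gene, rose 4.56-fold and *Zyx*, which encodes the focal adhesion protein zyxin, 2.38-fold. Targets of YAP and TEAD fell in 7 of 12 (58.3%, beside 22.8% of all genes) and rose in 2 (16.7%, beside 24.6%). The 2 were *Crim1*, which turned to -0.0071 under library-size scaling, and *Tgfb2*. Among those that fell were *Ajuba* (log2 change -1.75) and *Amotl2* (-2.70).

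Of 17 regulators of BMP and TGF-beta signalling, 10 rose (58.8%, beside 24.6% of all genes) and 5 fell (29.4%, beside 22.8%), or 7 and 7 under library-size scaling. Those that fell were *Smad5*, *Smad6*, *Smad9*, *Bmpr1a* and *Bmpr2*. The fall of *Bmpr2* was not called without replicate 3 of the libraries without PDGF or replicate 2 with cycloheximide and PDGF (edgeR adjusted p = 0.0686 and 0.133), or with no filter on low counts (0.0963). *Id4*, a helix-loop-helix inhibitor, was at 2.54, 1.75 and 1.68 CPM without PDGF, 3.31, 3.36 and 4.56 CPM with PDGF and 58.95, 47.9 and 56.5 CPM with cycloheximide and PDGF, and the related *Id3* went from 2 reads to 18 and 181. *Inhba*, which encodes activin A, was at 127, 149 and 129 CPM, 1078, 1019 and 1010 CPM and 494, 502 and 508 CPM. *Smad6*, an inhibitor of BMP signalling, fell by 3.51 on the log2 scale with PDGF alone and by 1.17 with cycloheximide and PDGF (18.6, 20.4 and 14.98 CPM). Extracellular matrix genes fell in 9 of 19 (47.4%, beside 22.8% of all genes) and rose in 3 (15.8%, beside 24.6%), *Fn1*, *Col5a1* and *Tnc*. Of these *Tnc*, tenascin C, rose 8.50-fold against 21.8-fold with PDGF alone. Under library-size scaling *Fn1* (-0.045) and *Col5a1* (-0.26) were below 0, and *Col5a1* also lost its call without replicate 1 of the libraries without PDGF or replicate 1 or 2 with cycloheximide and PDGF (edgeR adjusted p up to 0.163), under RLE scaling (0.0591), with either other filter (0.0989 and 0.123) and on protein-coding transcripts (0.424).

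Predicted genes, pseudogenes, genes whose groups overlapped and genes averaging under 1 log2 CPM were left aside, and of the rest the 10 largest rises by fitted log2 change were *Fos*, *Fosb*, *Egr4*, *Hist1h2ah*, *Ccdc85b*, *Slc8a2*, *Jun*, *Homer1*, *Hist1h2bk* and *Bpifb2*. The place of *Egr4*, *Hist1h2ah*, *Slc8a2* and *Bpifb2* in that order rests on fitted values over a group with no read, for which only a lower bound holds. *Homer1*, a postsynaptic scaffold gene with a known short immediate early form, was at 19.8, 15.7 and 15.5 CPM without PDGF, 484, 450 and 423 CPM with PDGF and 3843, 3100 and 3600 CPM with cycloheximide and PDGF, and predicted gene models lie inside it. *Ccdc85b*, a coiled-coil protein gene, overlaps *Fosl1* on the opposite strand, and reads of the pair cannot be told apart by strand. *Slc8a2*, a sodium-calcium exchanger gene, and *Bpifb2* had no read without PDGF and 130 and 75 reads with cycloheximide and PDGF, at least 47.8-fold and 27.5-fold higher. Neighbours on the chromosome rose beside both, *Kptn* beside *Slc8a2* by a log2 change of 2.91 and *Sun5* and *Bpifb6* beside *Bpifb2* by 4.88 and 7.27, which were chosen after their values were seen.

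Within the same limits the 10 largest falls were *Medag*, *Hoxd3*, *Palm*, *Dlk1*, *Tars*, *Cxcl12*, *Ttc13*, *Zbtb18*, *Dip2a* and *Adgrl2*. *Medag*, a gene of adipocyte development, had 178 reads without PDGF, 89 with PDGF and none with cycloheximide and PDGF, at least 53.8-fold lower than without PDGF, and antisense genes overlap it. *Dlk1*, a preadipocyte gene, was at 33.4, 27.5 and 25.1 CPM without PDGF, 36.6, 33.1 and 41.01 CPM with PDGF and 1.45, 1.26 and 0.384 CPM with cycloheximide and PDGF (edgeR adjusted p = 2.38e-21). *Zbtb18*, a zinc finger repressor gene, was at 12.4, 13.7 and 18.1 CPM, 22.03, 19.4 and 16.98 CPM and 0.621, 0.252 and 1.15 CPM. *Hoxd3*, a homeobox gene, had 146 reads without PDGF and 3 with cycloheximide and PDGF, a ratio of read rates of 0.0226 (95% interval 0.00462 to 0.0675). *Dlk1* and *Zbtb18* were not called with PDGF alone, whereas *Hoxd3* and *Palm* fell there too, by 2.44 and 1.79 on the log2 scale. Antisense genes also overlap *Hoxd3*, *Palm*, *Zbtb18*, *Dip2a* and *Adgrl2*, so reads of each pair cannot be told apart.

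Among the 8 largest rises with PDGF alone, *Fosb*, *Ccdc85b* and *Btg2* were higher still with cycloheximide, and *Cish*, *Fgl2*, *Lif*, *Il6* and *Stc1* were lower than with PDGF alone while above no PDGF. *Stc1*, a secreted glycoprotein gene, had 2, 145 and 11 reads in the 3 groups. Its rise over no PDGF with cycloheximide (edgeR adjusted p = 0.0234) lost the call without any of 4 single libraries, replicates 2 and 3 without PDGF and 1 and 2 with cycloheximide and PDGF (adjusted p up to 0.112), and under library-size scaling, limma-voom or no filter (0.053 to 0.0535). Among the 8 largest falls with PDGF alone, *Mn1*, a coregulator gene, was at 534, 480 and 470 CPM without PDGF, 47.1, 58.4 and 43.1 CPM with PDGF and 125, 120 and 118 CPM with cycloheximide and PDGF. *Ttc30b*, a primary cilium gene, was at 9.81, 9.16 and 7.11 CPM, 0.826, 0.775 and 0.621 CPM and 10.1, 9.83 and 11.3 CPM and was not called against no PDGF under cycloheximide (edgeR adjusted p = 0.459). The carbohydrate sulfotransferase gene *Chst12* was at 36.7, 34.03 and 37.4 CPM, 5.51, 2.84 and 2.90 CPM and 27.1, 31.3 and 25.4 CPM (edgeR adjusted p = 0.0698 against no PDGF). It passed as lower under 6 alternatives, with an adjusted p from 0.000172 (library-size scaling) to 0.0491 (without replicate 2 of the cycloheximide group).

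The strongly raised genes were short. Among protein-coding genes raised at least 8-fold the median span from first to last base was 8.40 kb with 4 exons, and 25.5% had a single exon, against 25.5 kb, 8 exons and 7.20% among all protein-coding genes tested. Without the histone genes the raised set still had a median span of 11.9 kb. Genes raised at least 2-fold had a median of 18.0 kb and genes lowered at least 2-fold 22.7 kb. Genes lowered at least 8-fold were also below the median of all genes, at 18.3 kb, with 8 exons. In the promoters of genes raised at least 8-fold, a CArG box was found in 3.77% (6 of 159 genes), a CRE in 5.66%, an NF-kB motif in 13.2% and an AP-1 site (TGANTCA) in 11.3%. The shares of all genes with a promoter were 1.58%, 3.78%, 6.21% and 6.26%, and those of genes lowered at least 8-fold 1.32%, 2.63%, 6.58% and 7.89%. The raised set includes immediate early factors counted above.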

How the data were processed

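RNA sequencing read counts were compared between 3 libraries with cycloheximide and PDGF and 3 without PDGF. The authors deposited raw counts for 142446 transcripts per library. Per the submitters' processing notes, the tools were R 4.1.0, HISAT2 2.2.1 and HTSeq 0.9.1 with build hg38, although the transcript identifiers are those of mouse. Mouse build, annotation, strand and counting settings: not given in the sources used here. Counts were summed per gene through GENCODE M21 (GRCm38), which held 141536 of the transcripts. The 910 not matched carried 0.0309% of counts.

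Low counts were removed with filterByExpr across the 5 groups, and libraries were scaled by TMM. They were tested with edgeR 4.0.16 (robust quasi-likelihood fit, 1 mean per group, 15 libraries, 10 residual degrees of freedom) under R 4.3.3, and p-values were adjusted over all 10603 genes by Benjamini-Hochberg. Genes with an adjusted p under 0.05 were called. Standard errors of log2 changes are approximate, being derived from the fold change and the test statistic. CPM are counts scaled to a common library size after TMM. Alternatives were DESeq2 1.42.0, limma-voom (limma 3.58.1), RLE and library-size scaling, filters on low counts, the 6 libraries alone, a replicate block, protein-coding transcripts alone, and leaving out each library. Library totals set the precision, and ratios of reads have exact 95% intervals that cover counting error only.

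The comparison, the gene lists and the members were chosen with earlier results of these data known. Named genes were the 10 largest rises and falls without overlap between groups, the 8 largest rises and falls with PDGF alone, up to 4 called members of each list by size of change with its highest member not called, all with mean log2 CPM not under 1, and *Fos*, *Jun*, *Junb*, *Egr1*, *Myc*, *Ier2*, *Ptgs2*, *Ccl2*, *Ccnd1*, *Pdgfra*, *Pdgfrb*, *Actb* and *Gapdh*. Chosen after their values were seen were *Atf4*, *Bhlhe40*, *Bmpr1a*, *Bmpr2*, *Ccl7*, *Ccn1*, *Cdkn1b*, *Cebpb*, *Cenpa*, *Chac1*, *Clock*, *Col1a2*, *Col5a1*, *Crim1*, *Dusp1*, *Dusp4*, *Dusp5*, *Dusp7*, *Egr2*, *Egr3*, *Ereg*, *F3*, *Fbxo32*, *Fn1*, *Fosl1*, *Fosl2*, *Gadd45a*, *H2afy*, *H2afy2*, *Hbegf*, *Hist1h1c*, *Hist1h4i*, *Jund*, *Khsrp*, *Klf2*, *Klf4*, *Klf6*, *Mrps7*, *Nfkbia*, *Nr4a1*, *Nr4a2*, *Rora*, *Rpl7l1*, *Rps15*, *Rps15a*, *Sars*, *Sel1l*, *Sesn2*, *Sgk1*, *Slc7a1*, *Slc7a11*, *Smad5*, *Smad9*, *Srebf2*, *Srf*, *Tgfb2*, *Tgfbr2*, *Thbs1*, *Trib3*, *Vegfa* and *Zfp36l2*. Promoters come from RefSeq tables on GRCm38.p6, matched by symbol. Some genes are not reported here.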

Additional observations from a re-analysis of the deposited data

How the results depend on the processing

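Library-size scaling gave 1615 genes higher and 4400 lower, in place of 2611 and 2417. Requiring a mean count of at least 30 left 1599 genes changed at least 2-fold in place of 2598. Counting protein-coding transcripts only, which tests fewer genes, gave 1719 genes higher and 1287 changed at least 2-fold. RLE scaling, no filter, the 6 libraries alone, DESeq2 and limma-voom kept all 3 counts within 1.5 times. Leaving out single libraries gave 2369 to 2532 genes higher, 2116 to 2288 lower and 2549 to 2643 changed at least 2-fold. Of 151 named genes called, 133 kept direction and call under each of the 15 alternatives in which they were tested. Genes with few reads were not tested under every alternative, the stricter filter among them.

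Log2 changes turned sign under library-size scaling for *Trib3* (-0.14), *Sesn2* (-0.11), *Col5a1* (-0.26), *Fn1* (-0.045), *Crim1* (-0.0071), *Ttc30b* (-0.12), *Chac1* (-0.32) and *Nfkb1* (-0.36). On protein-coding transcripts *Chac1* was at -0.013 and *Hsph1* at 0.88. *Nfkb1* was at -0.0044 with the stricter filter. Without single libraries, *Nfkb1* ranged from -0.067 to 0.14, *Chac1* from -0.063 to 0.19 and *Ccnd1* from -0.068 to 0.050.

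Replicate numbers are shared between the groups, but same-numbered libraries did not deviate together (correlations 0.00763, 0.0521 and 0.0202), and not every library correlated best with its own number. With the replicate block 2617 genes were higher, 2424 lower and 2584 changed at least 2-fold. Genes with few reads, among them *Egr1*, *Il6*, *Lif*, *Stc1* and most histone genes, have wide intervals at this depth.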

Other observations

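Further gene groups were measured in the same comparison. Heat shock chaperones rose in 8 of 16 tested (beside 24.6% of all genes) and fell in 2, *Hsf2* and *Hsph1* (beside 22.8%). *Hsph1* was at 0.88 without a call when only protein-coding transcripts were counted. The median log2 change of the list was 0.34 and turned to -0.05 under library-size scaling. *Dnajb1*, a co-chaperone of HSP70, was at 9.99, 7.85 and 11.4 CPM without PDGF, 14.1, 20.2 and 15.7 CPM with PDGF and 227, 191 and 219 CPM with cycloheximide and PDGF (log2 change 4.43 ± 0.14, edgeR adjusted p = 1.66e-30). *Bag3*, a co-chaperone of selective autophagy, rose 3.49-fold. Unfolded protein response genes rose in 9 of 18 and fell in 1 (*Sel1l*), beside 24.6% and 22.8% of all genes. The median of that list, 0.38, was -0.01 under library-size scaling. Its member *Hspa5*, the chaperone BiP, went from 31 reads without PDGF to 251 with PDGF and 172 with cycloheximide and PDGF.

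In the BCL2 family *Mcl1*, a short-lived survival protein gene, rose 4.37-fold to 2505, 2222 and 2331 CPM, and *Bax*, a death effector gene, fell to 6.62, 4.29 and 5.38 CPM from 22.2, 25.1 and 16.8 CPM. Of 14 clock genes, 6 rose (42.9%, beside 24.6% of all genes) and 3 fell (*Hlf*, *Clock* and *Rora*), or 5 and 6 under library-size scaling. The share of falls, 21.4%, is near the 22.8% of all genes. *Nr1d1*, a clock repressor, was at 75.8, 99.3 and 83.03 CPM without PDGF, 73.3, 92.01 and 70.4 CPM with PDGF and 227, 302 and 257 CPM with cycloheximide and PDGF. *Ifit1*, an interferon-induced gene, rose 5.28-fold (edgeR adjusted p = 2.36e-27) and was not called with PDGF alone. The list to which it belongs rose in 2 of 6 tested (*Ifit1* and *Isg15*, 33.3%, beside 24.6% of all genes) and fell in 1 (*Ifit2*, 16.7%, beside 22.8%). Of 14 NRF2 targets, 5 rose and 5 fell (35.7% each way, beside 24.6% and 22.8% of all genes), or 2 and 8 under library-size scaling. *Srxn1*, sulfiredoxin, was up 6.65-fold and *Fth1*, ferritin heavy chain, down by 2.53 on the log2 scale. Of 19 lysosomal genes, 6 rose and 7 fell (31.6% and 36.8%, beside 24.6% and 22.8% of all genes), or 3 and 12 under library-size scaling.

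The H2A-TerminaTOR line with cycloheximide and PDGF gives 3 further libraries under the same agents in another cell line, and its means (SD, n = 3) are given as values only. *Fos* was at 3997 ± 295 CPM there and 4859 ± 463 CPM in the H2A-mCherry line, *Jun* at 56350 ± 1294 and 62079 ± 1997 CPM, *Hist1h1c* at 705 ± 62.6 and 943 ± 40.1 CPM, *Insig1* at 1594 ± 51.9 and 2073 ± 20.6 CPM, *Slc7a1* at 608 ± 50.4 and 521 ± 43.2 CPM, and *Egr4* at 48.9 ± 9.44 and 16.97 ± 3.06 CPM.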
